A study of Mus musculus with 3 samples.

Results

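The 9 genes described here encode parts of the machinery that presents peptides on major histocompatibility complex (MHC) class II molecules. They were taken by symbol from 55536 annotated genes: H2-Aa, H2-Ab1, H2-Eb1, Cd74, H2-DMa, H2-DMb1, H2-Oa, Ciita and Rfx5. They were read in 3 libraries of 1 group, cytosolic RNA depleted of ribosomal RNA from macrophages grown from C57BL/6J bone marrow and given lipid A at 100 ng/ml for 60 min. Lipid A is the part of bacterial lipopolysaccharide that Toll-like receptor 4 senses. Each library was made from 1 µg of RNA, the replicates are numbered 1 to 3 in the labels, and sex and age were not collected. The labels give a biosample per library and 1 shared donor entry that names the strain, so the spread between libraries may be technical. Untreated cells were not analysed here, and no response to lipid A was measured.

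MHC class II molecules are dimers of an alpha and a beta chain that carry fragments of endocytosed proteins to the cell surface for CD4+ T cells. The invariant chain, encoded by Cd74, fills and escorts the new dimer until endosomal proteases trim it, and the H2-DM dimer then swaps the remaining fragment for peptide, a step that the H2-O dimer restrains. Transcription of these genes depends on the coactivator encoded by Ciita, which docks on a complex of RFX, CREB and NF-Y proteins at paired X and Y boxes. In macrophages the programme is best known for its induction by interferon-gamma. Mice of the H2-b haplotype, C57BL/6 among them, carry a promoter deletion in the gene of the I-E alpha chain and show I-A but no I-E on their cells.

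The paired boxes are shown first, because they tie the genes of the family to their regulators. In the RefSeq promoter windows of GRCm38.p6, which run from 250 bases before to 50 bases after a gene's start, 6 of the 9 genes had a window. The letters searched on both strands were ACNGATG for the core of the X box and ATTGG for the Y box, with the pair counted when 15 to 30 bases lay between them on 1 strand. The core of the X box stood in 9.85% of 32851 windows, the Y box in 37.4%, and the pair in 45 windows, or 0.137%. Among the windows of the 9 genes the pair was found in H2-Eb1 and H2-DMb1, and among those of 3 close relatives in H2-Eb2 and H2-DMb2. Capitals mark the letters searched, and each sequence is read on the + strand, the coding strand of all 4 genes.
H2-Eb1, chr17:34305769-34305822: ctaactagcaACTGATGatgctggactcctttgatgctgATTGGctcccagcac
H2-Eb2, chr17:34325536-34325589: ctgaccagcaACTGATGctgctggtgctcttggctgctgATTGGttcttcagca
H2-DMb1, chr17:34153090-34153144: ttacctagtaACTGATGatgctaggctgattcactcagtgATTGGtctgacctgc
H2-DMb2, chr17:34145119-34145173: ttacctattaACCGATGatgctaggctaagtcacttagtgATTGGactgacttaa
The space between the boxes was 22 bases in H2-Eb1 and H2-Eb2 and 23 bases in H2-DMb1 and H2-DMb2. The starts used for the windows are RefSeq's and can differ from those of the GENCODE gene spans given below. The pairs of H2-DMb1 and H2-DMb2 lie inside their GENCODE spans, which begin at 34153072 and 34143307. Those of H2-Eb1 and H2-Eb2 lie before theirs. A match is a description of the letters and does not show that a factor bound there.

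The windows of H2-Aa and of the relative H2-Ob held a Y box but no X box core before it at that spacing, and H2-Aa held an X box core on the opposite strand. Their stretches are shown for the Y box, in capitals, and the bases that lead up to it.
H2-Aa, chr17:34287857-34287908, - strand: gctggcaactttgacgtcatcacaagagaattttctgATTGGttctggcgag
H2-Ob, chr17:34238811-34238862, + strand: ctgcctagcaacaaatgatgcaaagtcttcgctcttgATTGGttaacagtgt
H2-Oa held both boxes outside the spacing searched, and Rfx5 held 2 Y boxes on the strand opposite to the gene. Of the 2 windows of H2-DMa, 1 held a Y box and 1 held neither. The absence of a match says only that these letters are not in the window.

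By mean level the 9 genes ranked from 379 (Cd74) to 11023 (H2-Oa) of 22028 protein-coding genes. Levels are in TPM, a read abundance divided by transcript length and scaled to the same total in every library, and they were set against the library's own median among 9123 protein-coding genes of at least 1 TPM. That median gene stood at 9.08, 5.76 and 6.86 TPM in replicates 1, 2 and 3. Cd74 led and the I-A and I-E chain genes came next, the H2-DM genes lay near the median gene, and Rfx5, Ciita and H2-Oa stood lowest. The order Cd74, H2-Aa, H2-Eb1, H2-Ab1, H2-DMb1, H2-DMa, Rfx5, Ciita, H2-Oa held in 3 of 3 libraries, and also in kallisto's values. A gene was called above or below when its level differed from the median gene by more than 2-fold in limma's treat test with a Benjamini-Hochberg adjusted p under 0.05.

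**Figure D1:**
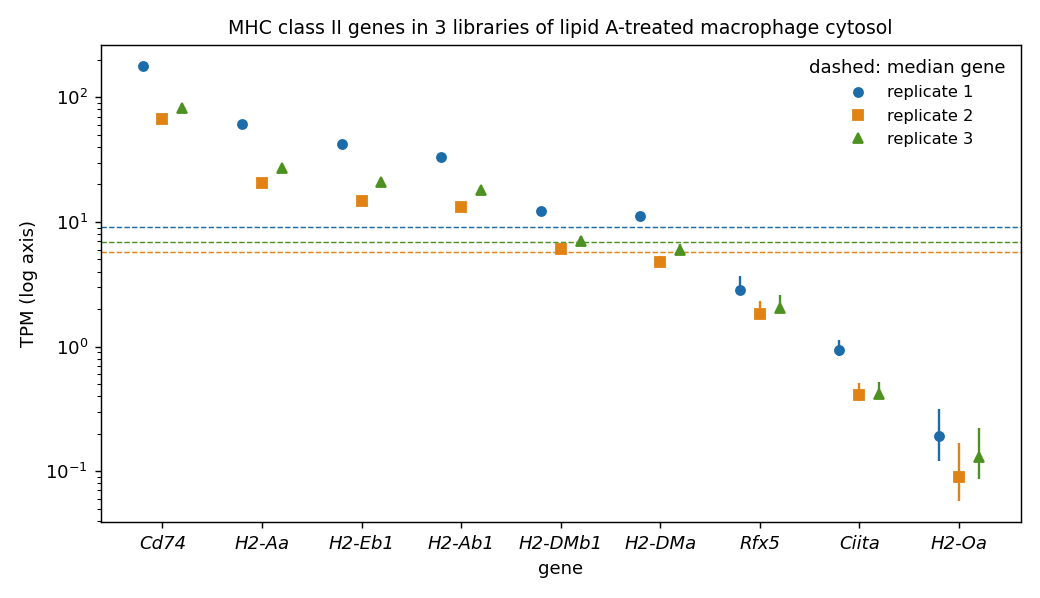
TPM of the 9 class II genes in each of the 3 libraries on a log axis, with the deposited credibility interval as a vertical line where it is wider than the symbol and the median gene of each library as a dashed line. Cd74 sits between 67.2 and 177 TPM, and H2-Oa at or below 0.19 TPM.

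Of the 7 members that reached 1 TPM, 4 were called above the median gene, against 26.3% of all genes tested, and 1 was called below it, against 24.5%. The other 2 were not called. Ciita and H2-Oa, under 1 TPM, did not enter the test. The median of the mean TPM over all 9 genes was 8.41 TPM, against 7.24 TPM over the 9123 genes tested.

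Cd74 (ENSMUSG00000024610.15), on chromosome 18 from 60803848 to 60812652 on the + strand of mm10, had the highest level of the group. It measured 177, 67.2 and 82.6 TPM in replicates 1, 2 and 3, a mean of 109 ± 59.4 TPM (SD, n = 3). Replicate 1 was the high library and replicates 2 and 3 lay close together. Relative to the median gene its log2 level was 3.79 (SE 0.15, adjusted p = 5.62e-06), and it lay above the median gene in 3 of 3 libraries.

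The genes of the classical chains followed. H2-Aa, the I-A alpha chain gene at chromosome 17 from 34282744 to 34287823 on the - strand, measured 61.1, 20.6 and 27.3 TPM in replicates 1, 2 and 3. H2-Ab1, the I-A beta chain gene from 34257689 to 34269419 on the + strand, measured 33.1, 13.2 and 18.2 TPM. H2-Eb1, the I-E beta chain gene from 34305867 to 34316674 on the + strand, measured 42.3, 14.9 and 20.8 TPM. Each of these genes was highest in replicate 1 and lowest in replicate 2. Their log2 levels over the median gene were 2.18 (SE 0.17, adjusted p = 0.000536) for H2-Aa, 1.71 (SE 0.16, adjusted p = 0.00394) for H2-Eb1 and 1.48 (SE 0.13, adjusted p = 0.0092) for H2-Ab1. The call of H2-Ab1 was lost with kallisto's TPM (log2 level 1.04, adjusted p = 0.786), and under the other alternatives tried its adjusted p lay between 8.59e-08 and 0.0204 in limma.

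With all its transcripts summed, H2-Eb1 was measured at a level near that of the I-A beta gene in a strain known to show no I-E. Its main protein-coding transcript, H2-Eb1-203, was at 9.57, 3.13 and 4.67 TPM in replicates 1, 2 and 3. That was below the main coding transcript of H2-Ab1, H2-Ab1-201, at 31.35, 12.38 and 16.94 TPM. The gene of the partner chain of H2-Eb1, annotated as H2-Ea-ps, a polymorphic pseudogene, had 0 counts in each of the 3 libraries. The limit set by a count of 0 is 3 counts, equal to 0.0469, 0.0417 and 0.0433 counts per 1000000 counts (CPM) in replicates 1, 2 and 3. Such limits cover counting error only.

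The peptide exchange factor had lower messages than the chains it acts on. H2-DMb1, for the H2-DM beta chain, measured 12.2, 6.06 and 7.02 TPM, and H2-DMa, for the alpha chain, measured 11.1, 4.81 and 5.97 TPM in replicates 1, 2 and 3. H2-DMb1 lay just above the median gene in each library, and H2-DMa lay above it in replicate 1 and below it in replicates 2 and 3. Their log2 levels were 0.17 (SE 0.09) for H2-DMb1 and -0.05 (SE 0.11) for H2-DMa, and neither was called (adjusted p = 1 for both in limma), although both were called above the lower median gene of the unfiltered set. H2-DMb1 lies on chromosome 17 from 34153072 to 34160230 and H2-DMa from 34119541 to 34139101, both on the + strand.

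H2-Oa, for the alpha chain of the dimer that restrains H2-DM, was close to the limit of these libraries. It measured 0.19, 0.09 and 0.13 TPM in the 3 replicates, in order, on 15, 12 and 16 counts. The exact 95% Poisson intervals of those counts were 8.4 to 24.7, 6.2 to 20.96 and 9.15 to 26.0, and they overlap. The gene spans 34092340 to 34095234 of chromosome 17 on the + strand. H2-Ob, the gene of its partner chain, was as low in the same quantification, at 0.10, 0.10 and 0.16 TPM. In kallisto's values H2-Ob was the higher, at 0.52, 0.12 and 0.39 TPM in replicates 1, 2 and 3. H2-Oa stood there at 0.074, 0.045 and 0.068 TPM.

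The regulators were low against Cd74 and the genes of the I-A, I-E and H2-DM chains, and above H2-Oa. Rfx5, a DNA-binding subunit of the RFX complex on chromosome 3 from 94954075 to 94961561 on the + strand, measured 2.87, 1.82 and 2.04 TPM in replicates 1, 2 and 3. It was called below the median gene in limma, at a log2 level of -1.65 (SE 0.07, adjusted p = 8.51e-05). That call was lost against the lower median gene that results when no filter on low values is used. Its TPM lay under its deposited credibility interval in replicates 1 (2.91 to 3.71) and 3 (2.06 to 2.57). In replicate 2 it lay at the lower edge (1.82 to 2.33). The SE does not use these intervals. Ciita, the coactivator gene on chromosome 16 from 10480059 to 10528418 on the + strand, measured 0.93, 0.41 and 0.42 TPM, on 370, 262 and 266 counts. Its level in replicate 1 was above those of replicates 2 and 3, which were nearly equal.

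A total of 6 differences between genes were taken within each library on the log2(TPM + 0.1) scale, which understates differences of low genes. With 3 libraries the exact sign-flip permutation test (2-sided) cannot go below p = 0.25, and each of the 6 gave that value, before and after adjustment over the 6. Cd74 exceeded H2-Ab1 by 2.31 ± 0.12 (SD, n = 3), in TPM a ratio of 5.34, 5.09 and 4.54 in replicates 1, 2 and 3. H2-Aa exceeded H2-Ab1, the other chain of its dimer, by 0.70 ± 0.16, with ratios of 1.84, 1.56 and 1.503. The 2 chains of I-A were nearer to each other than either was to the invariant chain in each library.

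The remaining pairs had one direction each in 3 of 3 libraries. With all transcripts of a gene summed, coding or not, H2-Ab1 was below H2-Eb1 by a log2 difference of -0.24 ± 0.10. In the same way H2-DMa was below H2-DMb1 by a log2 difference of -0.23 ± 0.10 (SD, n = 3 each). These pairs were the closest neighbours in the order of levels, and their deposited credibility intervals overlapped in 1 of 3 libraries for each pair. H2-DMa exceeded H2-Oa by 4.90 ± 0.33, with TPM ratios of 58.6, 53.4 and 45.9. Rfx5 exceeded Ciita by 1.83 ± 0.27, with ratios of 3.09, 4.44 and 4.86, the lowest of them in replicate 1.

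Along chromosome 17 the class II region ran from H2-Oa at 34092340 to H2-Ea-ps at 34344645, a span of 252 kb with 14 protein-coding genes. Of these, 10 reached 1 TPM, the test called 7 above the median gene and 0 below it, and left 3 uncalled. Against these 7, which include H2-Aa, H2-Ab1 and H2-Eb1, 26.3% of all genes tested were called above and 24.5% below. H2-Oa, H2-DMb2, H2-Ob and H2-Eb2, under 1 TPM, did not enter the test, so the 0 depends on that filter. Without the filter each of them was called below the lower median gene. H2-Eb2, a second I-E beta gene next to H2-Eb1, measured 0.06 TPM in each library, and H2-DMb2, the copy next to H2-DMb1, measured 0.46, 0.37 and 0.38 TPM in replicates 1, 2 and 3. H2-Eb2 and H2-DMb2 carry the box pair printed above, as do H2-Eb1 and H2-DMb1, whose mean levels were 26.0 and 8.41 TPM.

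The other genes of the region were at or above the median gene. Psmb8 and Psmb9, for subunits of the immunoproteasome, averaged 48.2 ± 13.4 and 17.7 ± 4.15 TPM, and both were called above it. Tap1 and Tap2, for the transporter that feeds peptides to class I molecules, averaged 18.6 ± 6.00 and 9.97 ± 3.14 TPM (SD, n = 3 each), and Tap1 alone of the pair was called. Brd2, for a chromatin reader that overlaps H2-DMa on the opposite strand, averaged 77.3 ± 13.0 TPM.

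**Figure D2:**
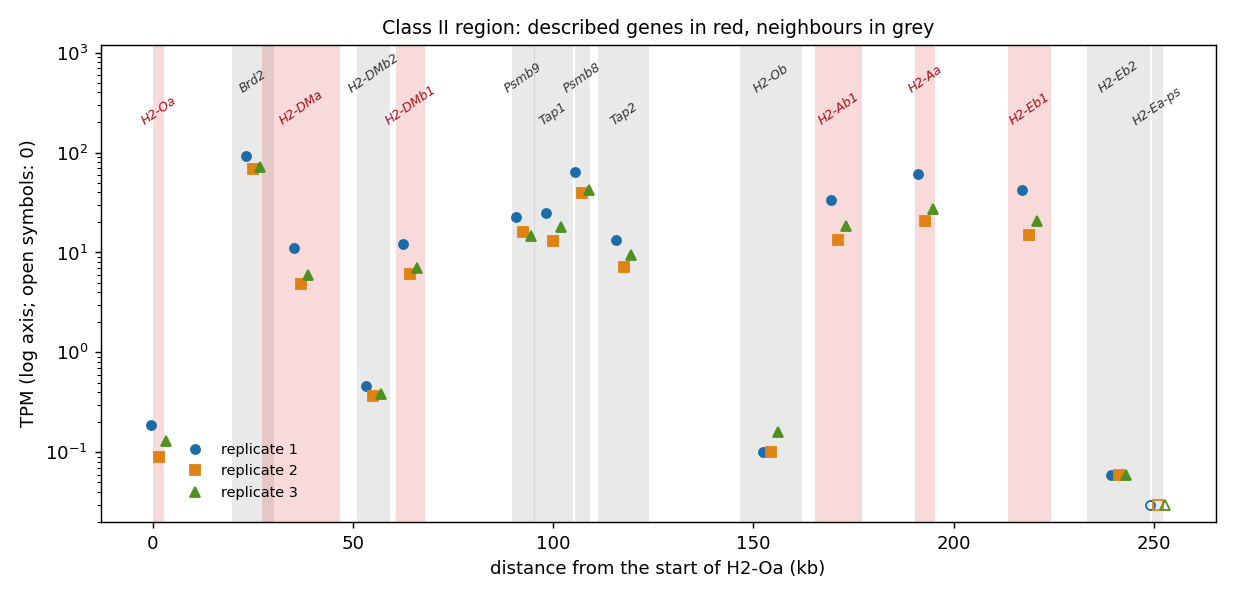
TPM on a log axis of the protein-coding genes and H2-Ea-ps along the class II region, by distance from the start of H2-Oa in kb, with shaded bands for the gene spans and 1 symbol for each of the 3 libraries, set side by side. H2-Oa, H2-DMb2, H2-Ob, H2-Eb2 and H2-Ea-ps lie below 1 TPM, and the other 10 genes lie at 4.81 to 92.02 TPM.

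The largest share of H2-Eb1 RNA was in a transcript that is not annotated as protein-coding. This was H2-Eb1-205, 1 of 5, annotated as a target of nonsense-mediated decay, the pathway that removes messages with an early stop codon. It held 47.2, 52.0 and 47.8% of the gene's TPM in replicates 1, 2 and 3. Transcripts annotated as protein-coding held 23.2 ± 0.33% and those with a retained intron 27.7 ± 2.90% (SD, n = 3). In H2-Aa, H2-Ab1, Cd74, H2-DMa and H2-DMb1, protein-coding transcripts held between 93.5% and 99.9% on average, and in Ciita, H2-Oa and Rfx5 90.9, 86.0 and 80.1%.

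H2-Eb1-205 begins exon 2 at 34309644 of chromosome 17, and the protein-coding H2-Eb1-203 begins it at 34309591. The later start leaves out 53 bases, which is not a multiple of 3, and the annotated coding sequence then ends at 92 residues against 264 in H2-Eb1-203. The junction of exons 1 and 2 is shown on the + strand, with the 53 bases in capitals and 24 bases on either side, from the GENCODE M21 transcripts.
H2-Eb1-203: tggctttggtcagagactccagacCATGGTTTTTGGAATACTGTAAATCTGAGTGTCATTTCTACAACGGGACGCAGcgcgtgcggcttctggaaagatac
H2-Eb1-205: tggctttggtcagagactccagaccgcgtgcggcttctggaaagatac
The later start was in 1 of the 5 annotated transcripts and the earlier one in 3. The models also differ at their ends: H2-Eb1-203 starts 59 bases earlier, and its last exon runs 475 bases further. The share assigned to each therefore does not rest on the junction alone.

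The second quantification gave the same transcript the largest share but less to the coding one. In kallisto's values H2-Eb1-205 held 52.2 ± 1.92%, and protein-coding transcripts held 10.4 ± 0.34% (SD, n = 3). H2-Eb1-204, which continues 132 bases past the end of exon 3, held 23.6 ± 2.28% in the deposited percentages and 29.9 ± 2.57% in kallisto's values.

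Cd74 RNA was divided mainly between 2 of its 5 annotated transcripts. Cd74-201, which encodes the short invariant chain of 215 residues, held 80.7, 79.2 and 76.2% of the gene's TPM in replicates 1, 2 and 3. Cd74-202 has an extra exon of 192 bases at 60811294 to 60811485 of chromosome 18 and encodes the long chain of 279 residues, whose added thyroglobulin domain is known to bind cathepsins. It held 19.1, 20.8 and 23.5%, and 23.1 ± 2.66% (SD, n = 3) in kallisto's values. The short form was the larger in 3 of 3 libraries.

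**Figure D3:**
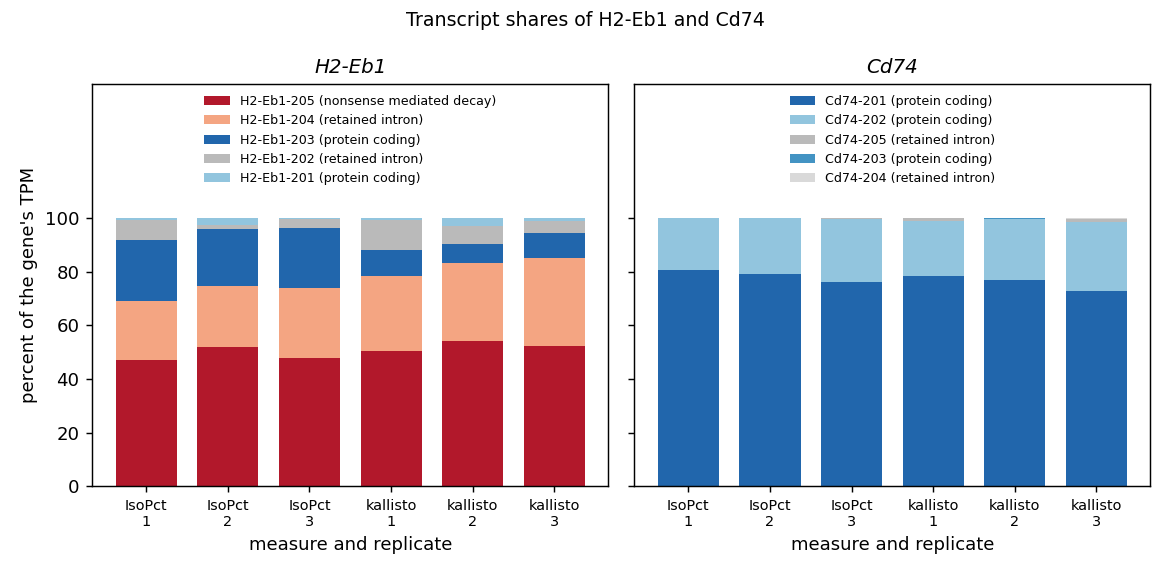
Percent of the gene's TPM in each annotated transcript of H2-Eb1 and Cd74, from the deposited IsoPct column and from kallisto's values, with 1 bar for each of the 3 libraries. H2-Eb1-205, the nonsense-mediated decay transcript, holds 47.2 to 52.0% of IsoPct, and Cd74-201 holds 76.2 to 80.7%.

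The transcripts of the regulators and of H2-DMa differ in where they start. H2-DMa-205, which begins at 34135628, held 88.9 ± 0.84% of the gene's TPM, and H2-DMa-201, which begins 12.8 kb upstream and encodes the same 261 residues, held 4.24 ± 0.42% (SD, n = 3). The promoter windows searched for H2-DMa lie at upstream starts and do not cover the start of H2-DMa-205.

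Ciita is known for several promoters that differ by cell type, and its 8 annotated transcripts start in 3 clusters on chromosome 16. The upstream starts, from 10480059, held 16.6, 15.8 and 9.67% of the gene's TPM in replicates 1, 2 and 3. The middle starts, 8.12 kb further on, held 58.9, 57.5 and 78.3%, and the downstream starts, from 10489746, held 24.4, 26.7 and 12.0%. The middle cluster was the largest in each library, also in kallisto's values at 50.5 ± 11.4% (SD, n = 3). Its leading transcript, Ciita-201, is also the only one whose annotated 3' end runs 1992 bases past the next longest, so its share does not rest on the start alone.

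Rfx5 had protein-coding transcripts at 80.1 ± 6.50% in the deposited percentages and 63.1 ± 5.09% in kallisto's values (SD, n = 3). Its retained-intron transcripts held 7.63, 8.69 and 17.2% in replicates 1, 2 and 3, highest in replicate 3. In H2-Oa such a transcript held 0, 0 and 41.9% in replicates 1, 2 and 3, on 7.3 counts in replicate 3 alone.

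All 9 class II genes were highest in replicate 1 once counts were scaled by TMM, a normalization that uses the bulk of genes, as were 31.9% of all genes tested. The 9 were highest in replicate 1 also with RLE size factors, with TPM over the median gene and with TPM rescaled over protein-coding genes. In TMM-scaled CPM, however, replicate 1 was over the mean of the others by only 1.03-fold for Rfx5 and 1.14-fold for H2-Oa. H2-Oa measured 0.228, 0.175 and 0.227 CPM in replicates 1, 2 and 3, so replicates 1 and 3 were all but equal. Its unscaled counts of 15, 12 and 16 were highest in replicate 3, so its order rests on the scaling. A chi-square test, which sets the spread between libraries against counting error alone, was run on 13026 genes with Benjamini-Hochberg adjustment. Of the 9 genes 7 passed it, Rfx5 and H2-Oa did not, and 62.5% of all genes tested passed, so the count is no result about class II genes.

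In TMM-scaled CPM, H2-Aa measured 77.7, 41.3 and 46.0 in replicates 1, 2 and 3, so that replicate 1 was 1.78-fold over the mean of replicates 2 and 3. Cd74 measured 255, 153 and 158 CPM, a ratio of 1.64. The ratio was 1.66 for H2-Eb1, 1.49 for H2-Ab1, 1.48 for Ciita, 1.42 for H2-DMa and 1.31 for H2-DMb1. The median log2 ratio of the 9 genes was 0.56, against -0.01 for all genes tested, of which 5% lay above 0.53.

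The median biological coefficient of variation (BCV), edgeR's measure of spread beyond counting, was 0.198 over the 9 genes and 0.122 over all genes tested. Without replicate 1, 4 of the 9 genes passed the chi-square test, namely H2-Aa, H2-Ab1, H2-Eb1 and Cd74, and 46.4% of all genes tested did. The median BCV of the 9 was then 0.106, against 0.130 for all genes tested. In bulk RNA, more cells that express these genes and more class II RNA per cell cannot be told apart.

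The make-up of the libraries differed too. The 7SL RNA of the signal recognition particle and its copies took 57.1, 69.6 and 62.2% of TPM in replicates 1, 2 and 3, and nuclear-encoded protein-coding genes took 32.7, 21.6 and 23.6%. TPM has 1 fixed total, so messages share what such RNAs leave. Expected counts assigned to annotated genes were 63944236, 71989793 and 69305836. Summed over 10 macrophage markers, TMM-scaled CPM was 16694, 13369 and 13819, and replicate 1 was highest for 4 of them. Their part in the class II difference was not tested.

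Markers of other antigen-presenting cells were low. The 9 dendritic cell markers summed to 4.55, 3.15 and 3.26 TPM in replicates 1, 2 and 3, of which Batf3 made up 1.57, 0.90 and 1.28 TPM. Kmo measured 1.19, 0.69 and 0.58 TPM and Ccr7 0.84, 0.76 and 0.71 TPM, while Flt3 and Zbtb46 were at 0.13 TPM or less and Cd209a was lowest on average at 0.06 TPM. In TMM-scaled CPM the 8 of them that passed the count filter summed to 11.1, 11.9 and 9.88, and 3 of the 8 were highest in replicate 1. The 10 B cell markers summed to 5.22, 3.27 and 3.45 TPM, of which Ighm made up 4.35, 2.75 and 2.54 TPM, and Cd79b 0.60, 0.31 and 0.53 TPM. Igkc was at 0.32 TPM or less, Cd79a, Ms4a1 and Pax5 were at 0.03 TPM or less, and Ebf1 was listed at 0 TPM on at most 1 count a library. The 6 T cell markers summed to 0.10 TPM or less, with Lck the highest, and Cd3g and Cd8a listed at 0 TPM on at most 2 counts. The 10 macrophage markers, from Lyz2 and Cd68 at 5032 and 693 TPM to Itgam at 21.7 TPM on average, were each called above the median gene, and Itgam lost the call with kallisto's TPM.

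**Figure D4:**
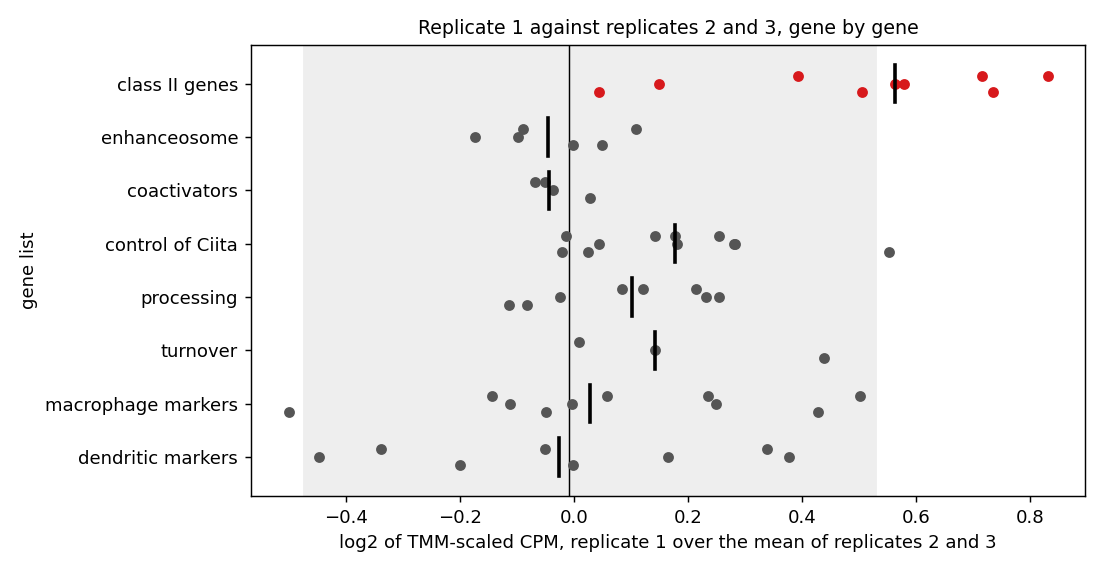
Log2 ratio of TMM-scaled CPM in replicate 1 over the mean of replicates 2 and 3 for each gene that passed the count filter, by list, with a thick bar at the list's median. The grey band is the range from the 5th to the 95th percentile of all genes tested, -0.47 to 0.53, and the thin line is their median; the class II genes lie to the right, with a median of 0.56.

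The wider class II pathway was listed by role. Of 36 further genes in 6 groups, 31 entered the test, 20 were called above the median gene and 3 below it, against 26.3% and 24.5% of all genes tested. The list holds lysosomal proteases that macrophages express for many purposes. The 4 close relatives (H2-Ob, H2-Ea-ps, H2-Eb2 and H2-DMb2) were all under 1 TPM.

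The proteins that bind the X and Y boxes had modest messages. Of 6, Nfya, an NF-Y subunit, was called above the median gene at 20.9 ± 4.77 TPM, Nfyb and Rfxank were called below it at 2.14 ± 0.47 and 1.90 ± 0.49 TPM, and 3 were not called. Creb1, which joins the complex at the X box, averaged 5.80 ± 1.48 TPM (SD, n = 3 each). Among 4 chromatin coactivators, Smarca4 and Ep300 were called above the median gene at 17.4 ± 3.67 and 17.4 ± 4.404 TPM, and Kat2b was lowest at 6.77 ± 1.36 TPM and was not called. Both calls were lost with kallisto's TPM, and that of Ep300 also with a pseudocount of 1 and without replicate 3 (adjusted p = 0.0694 and 0.0595 in limma; log2 levels 1.15 and 1.17). In TMM-scaled CPM none of these 10 genes was highest in replicate 1.

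The factors known to control Ciita were mostly abundant in the same libraries. Of 11, 8 were called above the median gene, 1 below it and 2 were not called. Irf1, an interferon-induced activator of Ciita, measured 344, 156 and 169 TPM in replicates 1, 2 and 3, and Spi1, the macrophage factor PU.1, averaged 73.7 ± 18.01 TPM (SD, n = 3). Prdm1, which represses Ciita in plasma cells, averaged 27.0 ± 9.30 TPM (SD, n = 3). Irf4 was the lowest, at 2.37 ± 0.59 TPM, and was called below the median gene. In TMM-scaled CPM, Irf1 in replicate 1 was 1.47-fold over the mean of replicates 2 and 3, and 8 of the 11 were highest in replicate 1.

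The genes that prepare and trim the cargo were the most abundant of the pathway. Of 8, the 7 that entered the test were all called above the median gene. Ctsd and Ctsb, lysosomal proteases, ranked 5 and 6 of 22028 protein-coding genes at 3389 ± 764 and 2503 ± 1004 TPM. Ctss, the cathepsin best known for cleaving the invariant chain, averaged 816 ± 304 TPM, and Sppl2a, which clears its membrane stub, 25.3 ± 9.17 TPM (SD, n = 3 each). Ifi30, a lysosomal thiol reductase, was lowest at 19.6 ± 5.49 TPM and is annotated as a processed transcript, which kept it out of the test of protein-coding genes. In TMM-scaled CPM, 5 of the 8 were highest in replicate 1.

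Among 3 genes that set class II turnover, Cd83, which stabilizes surface class II, averaged 362 ± 153 TPM. March1, the ubiquitin ligase that removes class II from the surface, averaged 19.6 ± 4.43 TPM (SD, n = 3 each), and both were called above the median gene, although March1 lost the call with kallisto's TPM (log2 level 1.05). March8, a related ligase, was lowest at 14.2 ± 3.89 TPM and was not called. Cd83 in replicate 1 was 1.36-fold over the mean of replicates 2 and 3 in TMM-scaled CPM, and March1 was 1.01-fold.

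Some of these values depend on reads that could belong to neighbours or copies. Of the distinct 50-base words in their annotated transcripts, H2-DMb1 shared 22.7% with H2-DMb2, Rfx5 shared 22.3% with the antisense gene B230398E01Rik, H2-Oa shared 15.5% with the antisense gene BC051537, and H2-DMa shared 8.43% with Brd2. Ciita shared 1.46% with Dexi and H2-Aa 0.514% with repeats in other genes, and H2-Ab1, H2-Eb1 and Cd74 shared none. No source used here says whether strand entered the counting. Counts assigned to B230398E01Rik were 13.4, 8.81 and 3.57 in replicates 1, 2 and 3, against 936, 930 and 993 for Rfx5, and the counts of Brd2 were 23360, 29360 and 26672.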

How the data were processed

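For each of the 3 libraries the authors deposited values per gene and, from 2 quantifications, per transcript. Per the file headers the tables of the first give the expected count and the TPM, with columns named as RSEM writes them, and lower and upper bounds of a TPM credibility interval, used as a signal per gene. The deposited transcript table gives IsoPct, each transcript's percent of its gene's TPM. The second quantification, deposited with kallisto's column names, gives TPM and estimated counts per transcript, which were summed per gene. Assembly is mm10 per the labels. The sources used here give neither versions of the aligner and quantifiers nor the use of strand. All 55536 genes matched GENCODE M21. Rows that are no annotated gene held 0.260, 0.0933 and 0.0577% of the counts and were left out.

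For protein-coding genes of at least 1 TPM, log2(TPM + 0.1) minus the library's median was fitted with an intercept in limma 3.58.1 under R 4.3.3, and treat tested for a log2 level beyond 1 either way. In edgeR 4.0.16, expected counts were rounded, passed through filterByExpr and given TMM factors. Log2 ratios of CPM used a prior of 0.05 CPM. The chi-square test compared the 3 counts with effective library sizes. The tests recovered known changes in simulated data, apart from lowered genes that fell under 1 TPM and were filtered out. For the chi-square test the simulated counts held counting error only, and 13 of 13203 unchanged genes were called. In these libraries 62.5% of genes passed, so that simulation does not show how the test behaves on genes that vary beyond counting. Python 3.11.15 with pandas 2.3.3, numpy 2.4.6, scipy 1.17.1 and matplotlib 3.10.9 did the rest. Sequences came from RefSeq's GRCm38.p6 promoter table and GENCODE M21 transcripts, with none printed for Cd74. The 9 genes and all lists were chosen with earlier results of these data known. Of each pathway group the text names at least the 2 highest and the lowest gene by mean TPM. Alternatives were a pseudocount of 1, no filter, kallisto's TPM, TPM rescaled over protein-coding genes, RLE size factors and leaving out each library, and for the count of genes highest in replicate 1 the other scalings were chosen after seeing the data. Values of some listed genes are not reported here.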

Additional observations from a re-analysis of the deposited data

How the results depend on the processing

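No paired contrast of conditions was possible because the 3 libraries form 1 group. Without the filter on low values, 14388 genes were tested, 4986 were called above and 5463 below the lower median gene, against 2403 and 2236 of 9123, and 2 of the 9 class II genes were called below. In that setting H2-DMa had a log2 level of 1.31 and H2-DMb1 of 1.53, both called above, and Rfx5 of -0.29, not called. With kallisto's TPM 7720 genes were tested and 1427 called below. Of the pathway genes 29 were tested and 1 was called below, since Rfxank and Nfyb averaged under 1 TPM there. H2-DMb1 stood at -0.28 in these values, protein-coding transcripts of H2-Eb1 held 10.4% and H2-Eb1-205 held 52.2%, and the cause was not tested. With 1 replicate left out, H2-DMa stood between -0.23 and 0.047. The number of class II genes whose counts differed between libraries was between 4 (without replicate 1) and 7; the cause was not tested. The counts of genes, differences between genes and transcript shares that answer the comparisons were also taken under alternatives. Of those values 5 moved and the others stayed within their limits. Among the latter, the number of class II genes called above was 4 in the main fit, 6 without the filter and 3 with kallisto's TPM. Levels of the class II genes kept their direction under a pseudocount of 1 and under TPM rescaled over protein-coding genes. Depth limits H2-Oa and the share of each Ciita start.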
